A study of Rattus norvegicus with 6 samples.

Results

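Genes of mitochondrial solute carriers and of the mitochondrial protein import machinery were examined in rat C6 glioma cells that overexpress Aqp1. The set was chosen by symbol alone: every listed gene of the Slc25a, Timm, Tomm, Samm50, Pam16, Mtx and Chchd families, which gave 73 of the 12121 genes in the count tables. Of these, 39 were metabolite carriers (Slc25a), 28 were counted as import machinery (Timm, Tomm, Samm50, Pam16, Mtx and Chchd4) and 6 were other Chchd genes. C6 is an established glioma line derived from a chemically induced rat brain tumour. RNA-seq was done on 3 libraries of C6-AQP1 cells, labelled as overexpressing Aqp1, and on 3 libraries of C6 control cells without this overexpression. The Aqp1 sequence was placed behind the CMV promoter of a vector that also carries copGFP and a puromycin resistance gene, and whether the control cells held an empty vector is not stated for the sequenced libraries. Whether replicates were grown as separate cultures is not stated, and p-values below therefore reflect variation among 6 libraries that may be only technical.

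Nearly all mitochondrial proteins are encoded in the nucleus and enter the organelle through the TOM complex of the outer membrane. Proteins with a presequence are then passed to the TIM23 complex and pulled into the matrix by its motor, while the metabolite carriers are escorted by small TIM chaperones to the TIM22 complex, which inserts them into the inner membrane. The SAM complex inserts barrel-shaped proteins into the outer membrane, and Chchd4 oxidises and traps small cysteine-rich proteins between the membranes. The SLC25 carriers exchange nucleotides, phosphate, carboxylates, amino acids and cofactors across the inner membrane, so they are both the transport route for metabolites and a major client of the import machinery.

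The expected counts of the 12121 genes summed to between 19054244 and 52725870 per library, with replicate 1 the shallowest in each group. Levels are given as normalized CPM, counts scaled to the library totals corrected by TMM factors. They were not divided by transcript length, so levels of different genes are not compared. Aqp1 (ENSRNOG00000011648) had 1052, 1064 and 1057 normalized CPM in C6-AQP1 replicates 1, 2 and 3, against 347, 352 and 349 in the C6 control replicates. Of the 8 glial markers examined, 6 were listed, while Slc1a2 and Fabp7 were not. All 6 rose in C6-AQP1 cells (adjusted p under 0.05 in the edgeR test described below), as did 40.8% of all tested genes. Their summed level was 6065 to 6268 normalized CPM in C6-AQP1 and 3956 to 4035 in C6 control. Most of this sum came from Vim, with a mean of 2001 in C6 control and 3249 in C6-AQP1, and Nes, with 1536 and 1840. Gfap went from 14.0 to 167 and Slc1a3 from 1.60 to 3.51. Of 4 neuronal markers, Map2 and Snap25 were listed, with a summed level of 251.8 to 258.2 in C6-AQP1 and 80.3 to 83.2 normalized CPM in C6 control. Nearly all of it was Map2, as Snap25 had only 4, 19 and 9 counts in C6 control replicates 1, 2 and 3. None of 4 microglial and none of 4 endothelial markers was listed. The part of these marker changes in the results was not tested. In such bulk samples, fewer cells of a kind and less RNA per cell cannot be told apart.

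The import machinery was lower in C6-AQP1 cells almost without exception, while the carriers split. A gene is said to have risen or fallen where its adjusted p was under 0.05 in edgeR's quasi-likelihood test, with the Benjamini-Hochberg method over all 12121 genes. Of the 28 import genes, 25 fell, 1 rose and 2 did not pass the test, where 40.7% of all tested genes fell and 40.8% rose. Of the 39 carriers, 17 rose, 14 fell and 8 did not pass. Because so many genes pass this test, a fold change above 1.5 was also asked for. By that bar, 18 import genes (64.3%) fell and none rose, where 15.0% of all tested genes fell and 19.8% rose (34.8% in either direction). Among the carriers 9 (23.1%) rose and 4 (10.3%) fell, shares near those of all genes. At the 2-fold bar used for DEGs in the study, which 9.74% of all tested genes passed upward and 4.35% downward, 5 carriers rose, and 1 import gene and 1 other Chchd gene fell. The other Chchd genes were all lower in the mean, 4 of 6 with an adjusted p under 0.05.

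The median log2 fold change was -0.74 over the 27 import genes with more than 3 counts in all libraries together, with quartiles of -0.88 and -0.42. It was 0.09 over the 39 carriers, with quartiles of -0.31 and 0.54, and 0.00 over all tested genes, with quartiles of -0.40 and 0.47. A fold of 1.67 lower was therefore typical of the import genes. The remaining import entry, a copy of Timm8a1 (ENSRNOG00000043480), had 1 count in 1 control library and none elsewhere, and no fold is given for it; with its fitted value the median of all 28 was -0.76. The values of the 3 C6-AQP1 libraries lay entirely on one side of those of the 3 controls in 26 of the 27 import genes and in 31 of the 39 carriers, against 82.5% of all tested genes. The median coefficient of variation within a group was 3.46% for the import genes and 3.97% for the carriers. No test of the difference between the classes is given, since genes are not replicates.

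**Figure D1:**
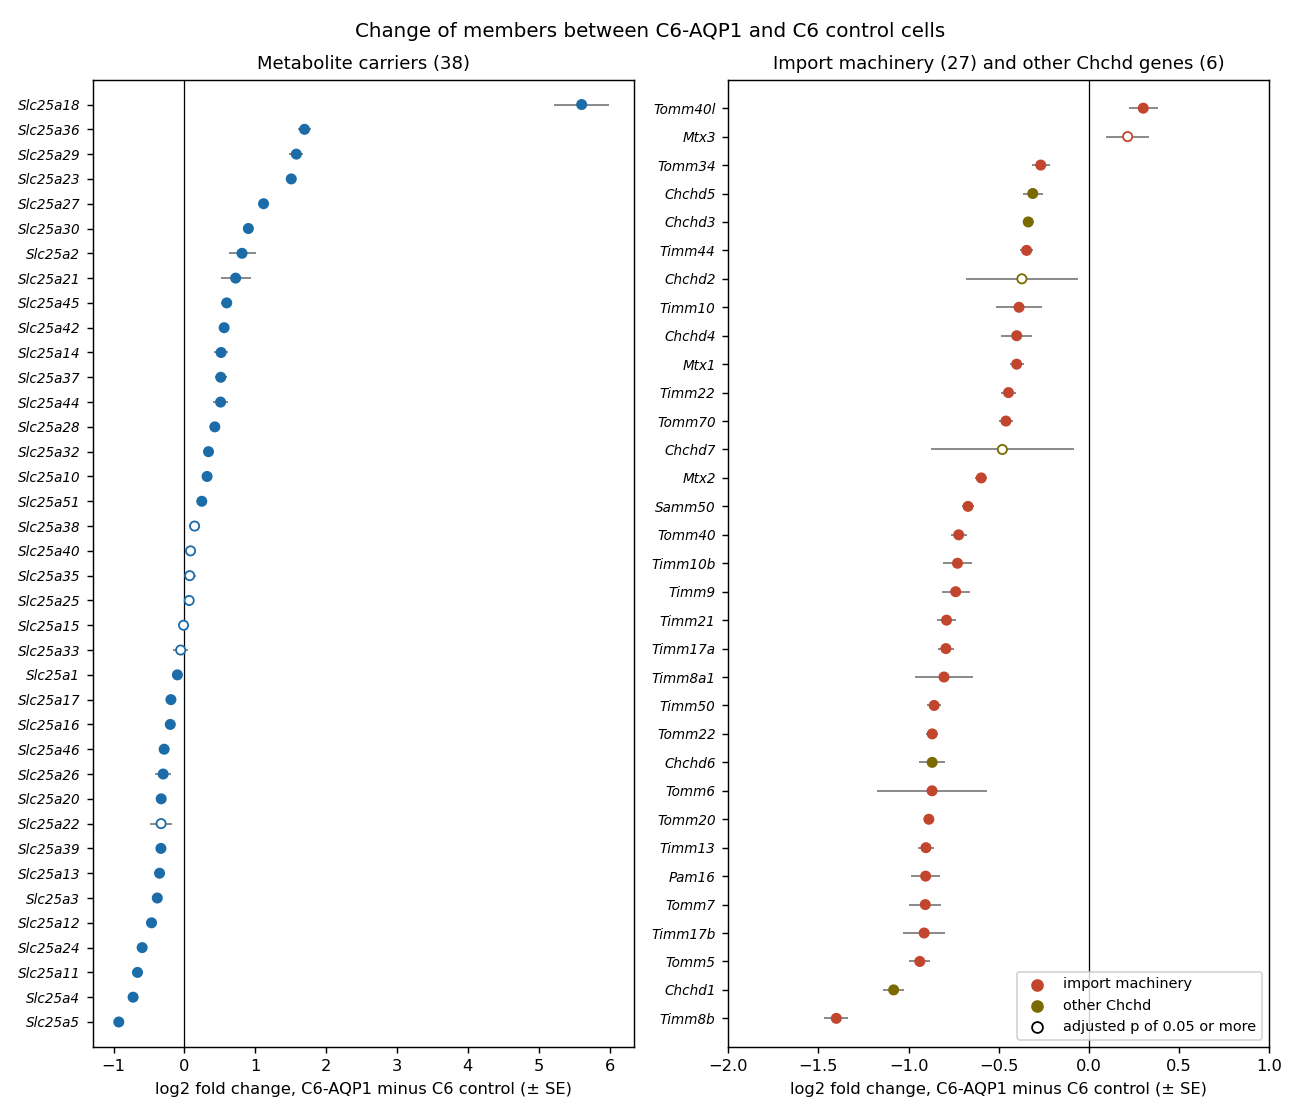
Log2 fold change (C6-AQP1 minus C6 control, x axis) with its standard error for the members reported here, with 38 carriers on the left and import machinery with other Chchd genes on the right, on different x scales; open points had an adjusted p of 0.05 or more. Carriers run from -0.93 for Slc25a5 to 5.61 for Slc25a18, whereas only Tomm40l and Mtx3 lie above 0 on the right.

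Of the TOM genes, 8 of 9 fell and only Tomm40l rose, where 40.7% of all tested genes fell and 40.8% rose. Tomm20 encodes the main receptor for presequences. It had 213, 207 and 206 normalized CPM in C6 control replicates 1, 2 and 3 and 117, 113 and 109 in the C6-AQP1 replicates, a log2 fold change of -0.89 (standard error, SE, 0.03, adjusted p = 6.2e-18). Tomm22, the central receptor that organises the complex, had 101, 101 and 98.8 normalized CPM in the controls and 57.6, 53.5 and 53.9 in C6-AQP1, a log2 fold change of -0.87. The levels of these partners changed by nearly the same factor, and in both genes the groups were far apart. Tomm40, the channel through which all these precursors pass, had 45.9, 46.6 and 50.7 normalized CPM in the controls and 29.2, 29.3 and 28.7 in C6-AQP1, a log2 fold change of -0.72. The small subunits that stabilise the channel fell as far or further. Tomm5 had 30.1, 30.8 and 29.6 normalized CPM in the controls and 14.3, 15.5 and 16.9 in C6-AQP1, a log2 fold change of -0.94. Tomm7 had 36.8, 36.8 and 33.2 against 22.6, 17.4 and 18.1, a log2 fold change of -0.91. Tomm6 was low, at 38, 66 and 69 counts in the controls and 28, 28 and 20 in C6-AQP1, and its groups overlapped. Its fall (log2 fold change -0.87, adjusted p = 0.015) did not pass without C6-AQP1 replicate 2 or 3, with adjusted p-values of 0.0844 and 0.106, in a range of 3.6e-05 to 0.106 over all alternatives. Its size was unstable too, with a log2 fold change of -0.54 without C6-AQP1 replicate 3 and -1.29 without C6-AQP1 replicate 1.

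Tomm70, the receptor that takes up carrier precursors with their cytosolic chaperones, fell less than Tomm20 and Tomm22. It had 57.0, 55.6 and 54.5 normalized CPM in the controls and 41.4, 41.7 and 38.4 in C6-AQP1, a log2 fold change of -0.46 (SE 0.04, adjusted p = 4.9e-10). Tomm34, a cytosolic co-chaperone rather than a subunit of the complex, had the smallest fall of the list, with a log2 fold change of -0.27. Tomm40l, a close relative of Tomm40, was the only import gene to rise. Its levels were 10.7, 9.96 and 12.2 normalized CPM in the controls and 13.2, 14.5 and 12.8 in C6-AQP1, a log2 fold change of 0.30 (SE 0.08, adjusted p = 0.0020). The highest control library lay just below the lowest C6-AQP1 library. In RefSeq the span of Tomm40l overlaps that of Nr1i3, whose log2 fold change was 0.03, and no source says that strand was kept in these libraries.

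In the SAM complex, Samm50, its barrel-forming core, had 90.3, 88.0 and 86.5 normalized CPM in the controls and 53.1, 57.0 and 55.2 in C6-AQP1, a log2 fold change of -0.67 (SE 0.03, adjusted p = 3.5e-14). The metaxins Mtx1 and Mtx2, which assist it on the cytosolic side, had log2 fold changes of -0.40 and -0.60. Mtx3 went the other way without passing the test, with 4.31, 3.54 and 4.17 normalized CPM in the controls and 4.51, 4.46 and 4.82 in C6-AQP1, a log2 fold change of 0.21 (adjusted p = 0.11, and 0.0464 when libraries were scaled by their totals alone). The groups did not overlap for any of these 4 genes, as in 82.5% of all tested genes, and those of Mtx3 lay close together.

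Timm8b had the largest fall of any member with counts above the floor. It encodes a small TIM chaperone that works with Timm13 between the membranes. It had 35.9, 34.4 and 30.1 normalized CPM in the controls and 13.01, 12.8 and 12.2 in C6-AQP1, a log2 fold change of -1.40 (SE 0.07, adjusted p = 8.1e-14), and was the only import gene past the 2-fold bar. Its partner Timm13 had 39.6, 42.3 and 41.3 against 22.4, 21.8 and 22.01, a log2 fold change of -0.90. Within each group the values of Timm13 spread by under 3 normalized CPM, so its fall is many times the spread. The listed copy of Timm8a1 with counts (ENSRNOG00000011226) had 78, 169 and 135 counts in the controls and 34, 73 and 76 in C6-AQP1, a log2 fold change of -0.80. The chaperones that carry the carrier precursors to TIM22 fell too: Timm9 by 0.74, Timm10 by 0.39 and Timm10b by 0.73 on the log2 scale. Timm10 was the least certain of these, with a standard error of 0.13 and 3.24 to 5.07 normalized CPM over all libraries. Chchd4, the oxidoreductase that traps the small TIM proteins, had 9.06, 10.3 and 9.90 normalized CPM in the controls and 8.25, 6.85 and 7.42 in C6-AQP1, a log2 fold change of -0.40 (adjusted p = 2.7e-04).

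All 6 listed genes of the TIM23 complex and its motor fell, and so did Timm22, the channel of the carrier insertase. Of all tested genes, 40.7% fell. Timm50, the receptor of TIM23, had 51.4, 52.6 and 53.9 normalized CPM in the controls and 28.4, 29.4 and 29.3 in C6-AQP1, a log2 fold change of -0.86 (SE 0.04, adjusted p = 8.8e-15). Timm17a and Timm17b, alternative channel subunits, fell by 0.79 and 0.91 on the log2 scale, and Timm21, which links TIM23 to TOM, by 0.79. Pam16, a regulator of the motor, had 16.4, 15.6 and 16.5 normalized CPM in the controls and 10.0, 8.33 and 7.97 in C6-AQP1, a log2 fold change of -0.91. These 5 genes lay in a narrow range of change. Timm44, the scaffold that tethers the motor to the channel, fell less, with a log2 fold change of -0.35 (56.9, 55.8 and 54.7 against 44.3, 44.4 and 42.9 normalized CPM). Timm22 had 35.99, 36.4 and 38.1 in the controls and 27.8, 26.8 and 26.9 in C6-AQP1, a log2 fold change of -0.45. No row carried the symbol of Timm23, the channel protein itself, or of Timm29, and their levels are not analysed here.

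Of the remaining Chchd genes, Chchd1, a protein of the small mitochondrial ribosomal subunit, had 28.8, 26.7 and 28.6 normalized CPM in the controls and 13.2, 14.0 and 12.5 in C6-AQP1, a log2 fold change of -1.08 (SE 0.06, adjusted p = 2.9e-13). Chchd3 and Chchd6 are subunits of MICOS, the complex that shapes the inner membrane at crista junctions. Chchd6 had 16.3, 15.6 and 16.1 against 7.94, 8.502 and 9.503 normalized CPM, a log2 fold change of -0.87, while the log2 fold change of Chchd3 was only -0.34. Chchd5 fell by 0.31 on the log2 scale. Chchd2, a stress-responsive protein of the intermembrane space, varied more within the groups than between them: it had 47.5, 74.1 and 83.5 normalized CPM in control replicates 1, 2 and 3 and 36.7, 53.2 and 67.8 in the C6-AQP1 replicates, with a log2 fold change of -0.37 (SE 0.31, adjusted p = 0.33). With 1 library left out, the value lay between -0.60 without C6-AQP1 replicate 3 and -0.20 without C6 control replicate 3. Its lowest value came from the shallower library in both groups, and its expected counts were not whole in any library, so some of its reads were shared with other features. Chchd7 had 14 to 34 counts per library and did not pass the test.

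**Figure D2:**
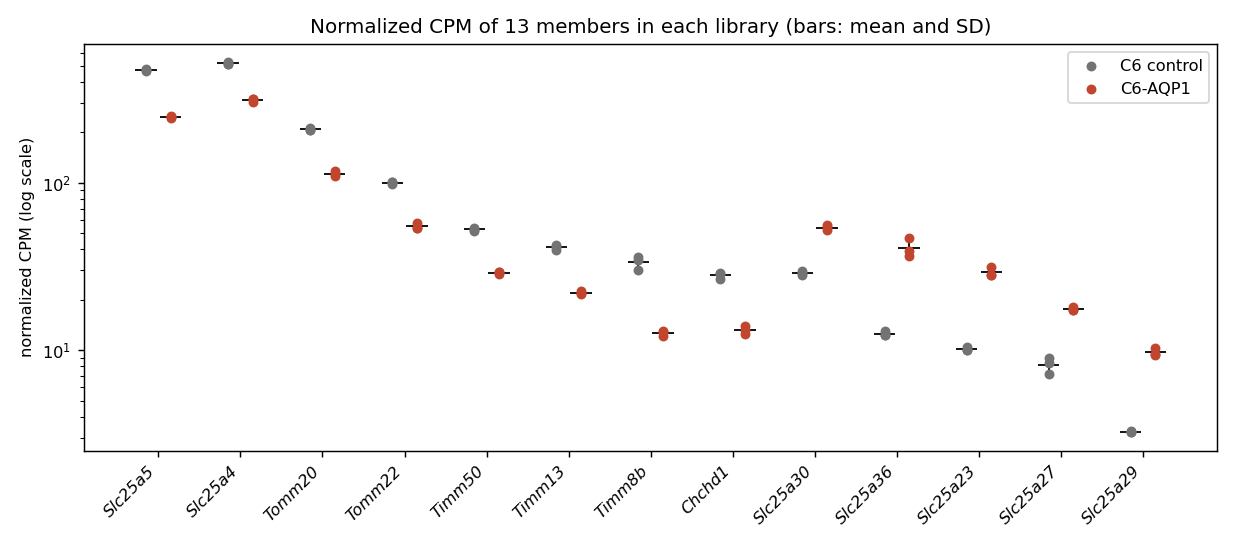
Normalized CPM (log scale, y axis) of 13 members in each library, grey for C6 control and red for C6-AQP1, with the mean and SD of 3 libraries. Slc25a5, Slc25a4, the import genes and Chchd1 are lower in every C6-AQP1 library, and the 5 carriers on the right are higher in every one.

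The promoters of the members, whichever way they changed, were searched in the RefSeq rat assembly GRCr8. The search covered the 250 bases before each gene's start, on both strands. A promoter sequence was found for 61 of the 73 members. The consensus of NRF1 sites occurred in 5 of 25 import promoters, in none of 32 carrier promoters and in 10.0% of the 9032 promoters of genes in the count tables. NRF1 is a transcription factor of many nuclear genes for mitochondrial proteins. CCGGAAG, the core of ETS factors such as GABP, occurred in 7 of 25 import promoters, in 5 of 32 carrier promoters (15.6%) and in 16.4% of the 9032. CCAAT, bound by NF-Y, occurred in 9 of 25 import promoters, in 18 of 32 carrier promoters (56.2%) and in 36.5% of the 9032. The cyclic AMP element TGACGTCA was found in the carrier promoters of Slc25a25 and Slc25a33 (6.25% of 32, none of 25 import promoters, 3.11% of the 9032). The E-box CACGTG occurred in 3 of 32 carrier promoters and 1 of 25 import promoters (8.41% of the 9032), and in 3 of 4 promoters of other Chchd genes. TGANTCA, the AP-1 letters, was found in 1 carrier and 2 import promoters (4.24% of the 9032), TATAAA in 1 and none (6.01%), and the YY1 consensus in none of either (0.576%). Matches of different motifs did not overlap in any member promoter. A match is a description of letters, not evidence of binding.

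The import genes with the NRF1 letters were Tomm20, Tomm7, Pam16, Timm21 and Chchd4, with log2 fold changes between -0.91 and -0.40. Of these, 4 are shown so that the place of the site can be compared; for Tomm20, whose promoter also held the ETS and AP-1 letters, all 250 bases are given. Capitals mark the NRF1 letters, and in Tomm20 also the ETS and AP-1 letters. Tomm20 lies at chr19:71832421-71832670 (minus strand), Tomm7 at chr4:12197445-12197502 (plus), Pam16 at chr10:11449433-11449491 (plus) and Chchd4 at chr4:125534719-125534778 (minus), all in GRCr8 and written 5′ to 3′ along the gene.
Tomm20: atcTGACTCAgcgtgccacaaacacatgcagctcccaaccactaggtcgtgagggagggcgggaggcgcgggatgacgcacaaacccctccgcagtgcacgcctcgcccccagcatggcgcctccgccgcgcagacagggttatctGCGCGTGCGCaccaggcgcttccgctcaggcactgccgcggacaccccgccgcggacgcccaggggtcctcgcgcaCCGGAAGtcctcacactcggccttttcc
Tomm7: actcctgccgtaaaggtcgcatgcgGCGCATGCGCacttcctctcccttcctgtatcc
Pam16: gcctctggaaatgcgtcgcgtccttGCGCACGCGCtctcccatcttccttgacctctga
Chchd4: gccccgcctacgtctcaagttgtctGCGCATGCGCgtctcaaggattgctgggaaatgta
The NRF1 letters end 24 bases before the start of Tomm7 and 25 before that of Pam16. In Tomm20 they end 95 bases before the start, with the ETS core 22 bases before it. In Chchd4 they end 182 bases before the start, and a second copy ends 93 bases before it. The carrier promoter shown for contrast is that of Slc25a23 at chr9:1985366-1985615 (minus strand), the carrier with the third largest rise among those with at least 50 counts in every C6-AQP1 library. It held a single CCAAT (capitals), ending 205 bases before the start, and none of the other letters searched.
Slc25a23: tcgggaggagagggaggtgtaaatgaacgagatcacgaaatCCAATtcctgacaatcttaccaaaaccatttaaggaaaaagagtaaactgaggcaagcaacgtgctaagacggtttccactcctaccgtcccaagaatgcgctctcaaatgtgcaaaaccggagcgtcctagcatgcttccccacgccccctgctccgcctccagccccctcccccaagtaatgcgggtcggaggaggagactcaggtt

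Among the carriers, those of oxidative phosphorylation fell together. Slc25a4 and Slc25a5 exchange ADP for ATP, and Slc25a3 brings phosphate into the matrix. Slc25a5 (ENSRNOG00000039980) had 477, 471 and 465 normalized CPM in the controls and 250.3, 248 and 245 in C6-AQP1, a log2 fold change of -0.93 (SE 0.02, adjusted p = 2.2e-20). Slc25a4, the isoform typical of heart and muscle, had 514, 512 and 523 against 302, 319 and 316, a log2 fold change of -0.72. Slc25a3 fell less, from 591, 568 and 579.8 to 443, 442 and 448, a log2 fold change of -0.38. In each of these genes the groups were separated by many times their spread. Together they took 55.4% to 55.6% of all carrier counts in the control libraries and 44.3% to 44.5% in C6-AQP1.

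The summed level of these 3 carriers went from 1567 ± 14.5 to 1005 ± 8.04 normalized CPM (SD, n = 3), a ratio of 0.641, and that of the 28 import genes from 1086 ± 11.1 to 668 ± 11.3, a ratio of 0.615. The other 36 carriers summed to 1256 ± 10.7 normalized CPM in C6 control and 1257 ± 5.51 in C6-AQP1, so the rises and falls among them came out even. Of all counts, the carriers took 0.277% ± 0.00240 in the controls and 0.231% ± 0.000608 in C6-AQP1 (SD, n = 3), the import machinery 0.107% ± 0.00101 and 0.0681% ± 0.00146, and the other Chchd genes 0.0244% ± 0.00140 and 0.0186% ± 0.00140.

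**Figure D3:**
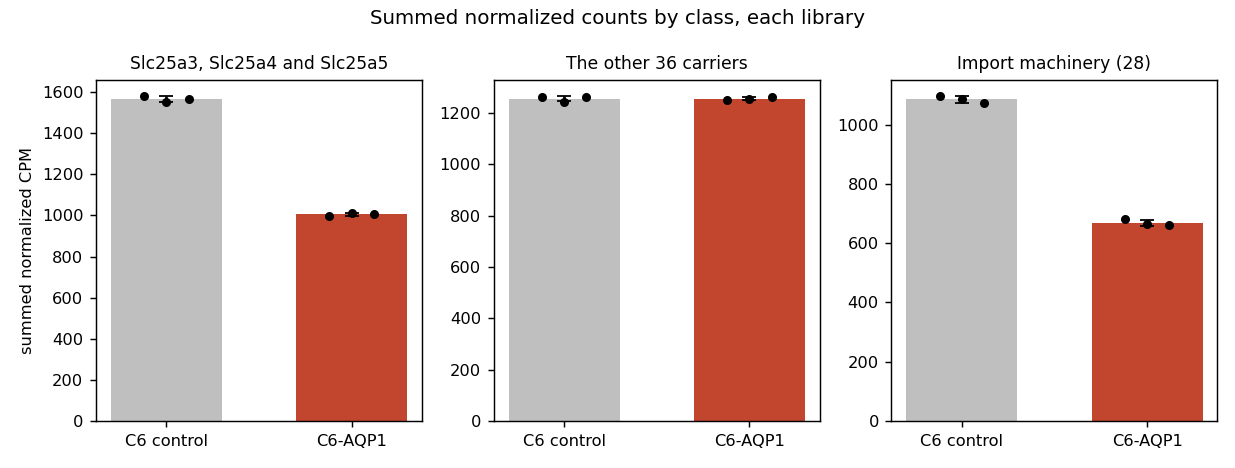
Summed normalized CPM (y axis, from 0, with a scale of its own in each panel) of Slc25a3, Slc25a4 and Slc25a5, of the other 36 carriers and of the 28 import genes. Bars give the mean of 3 libraries with the SD and points the libraries; the first and last panels fall to ratios of 0.641 and 0.615, while the middle one stays at 1256 and 1257.

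All 3 listed relatives of the uncoupling proteins rose, as did 40.8% of all tested genes. Slc25a27 (ENSRNOG00000010592), known from brain, had 8.93, 8.41 and 7.26 normalized CPM in the controls and 17.4, 17.3 and 18.0 in C6-AQP1, a log2 fold change of 1.12 (SE 0.08, adjusted p = 1.0e-11). Slc25a30 had 29.7, 28.8 and 28.3 against 55.6, 54.3 and 52.3, a log2 fold change of 0.90. Slc25a14, also expressed in brain, had a log2 fold change of 0.52, from 5.03, 5.28 and 5.46 to 7.99, 7.92 and 6.88 normalized CPM. The groups did not overlap for any of the 3 genes, as in 82.5% of all tested genes. The RefSeq span of Slc25a14 overlaps that of Zfp280c, whose log2 fold change was 1.57.

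The carriers that exchange ATP-Mg for phosphate under the control of calcium diverged. Slc25a23 (ENSRNOG00000047781) had 10.0, 10.5 and 10.1 normalized CPM in the controls and 31.3, 28.2 and 28.3 in C6-AQP1, a log2 fold change of 1.51 (SE 0.06, adjusted p = 1.2e-15). Slc25a24 had 149.7, 146 and 148 against 94.6, 96.8 and 101, a log2 fold change of -0.60 (adjusted p = 1.3e-14). Slc25a25 did not pass the test, with 28.3 to 30.4 normalized CPM in the controls and 29.4 to 31.9 in C6-AQP1.

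Where 40.8% of all tested genes rose and 40.7% fell, the nucleotide and cofactor carriers had similar shares. Among these carriers, 4 of 9 rose (44.4%), 3 fell (33.3%) and 2 did not pass. Slc25a36 (ENSRNOG00000013802), a pyrimidine nucleotide carrier, had the largest change, from 12.97, 12.3 and 12.3 normalized CPM in the controls to 46.9, 39.3 and 36.6 in C6-AQP1, a log2 fold change of 1.70 (SE 0.09, adjusted p = 1.0e-08). Slc25a33, the other pyrimidine carrier, stayed between 5.98 and 7.38 in all 6 libraries and did not pass the test. The carriers of coenzyme A (Slc25a42), of folate (Slc25a32) and of NAD (Slc25a51) had log2 fold changes of 0.56, 0.34 and 0.25. These rises were smaller than 1.5-fold, and the groups did not overlap, as in 82.5% of all tested genes. Slc25a16 and the peroxisomal carrier Slc25a17 fell by 0.20 and 0.19 on the log2 scale. Slc25a26, which brings S-adenosylmethionine into the matrix, fell by 0.30 (adjusted p = 0.019), a call that ended with DESeq2, without C6-AQP1 replicate 3 and without C6 control replicate 2 (adjusted p-values of 0.0706, 0.0606 and 0.0718; range over all alternatives 0.0187 to 0.0718).

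Carriers of carboxylates went both ways. Slc25a11, which exchanges malate for oxoglutarate in the malate-aspartate shuttle, had 95.04, 91.3 and 91.0 normalized CPM in the controls and 59.4, 57.0 and 58.9 in C6-AQP1, a log2 fold change of -0.66 (SE 0.03, adjusted p = 2.0e-14). Slc25a12 and Slc25a13, the aspartate-glutamate carriers of the same shuttle, fell by 0.46 and 0.35 on the log2 scale. All 3 carriers of the shuttle were thus lower in every C6-AQP1 library than in the controls. Of all tested genes, 40.7% fell, and the groups did not overlap in 82.5%. Slc25a10, the dicarboxylate carrier, rose from 142, 139 and 145 to 166, 182 and 182 normalized CPM, a log2 fold change of 0.32. The citrate carrier Slc25a1 had a log2 fold change of only -0.10 (adjusted p = 0.0048), with 113, 117 and 116 against 102, 111 and 109. That call ended when libraries were scaled by their totals alone (adjusted p = 0.159; range over all alternatives 7.05e-04 to 0.159). Slc25a21, of oxodicarboxylates, had 30, 69 and 44 counts in the controls and 42, 69 and 84 in C6-AQP1, a log2 fold change of 0.72 at 0.860 to 2.15 normalized CPM. Its RefSeq span overlaps Pax9, whose log2 fold change was 0.79.

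Of the amino acid and carnitine carriers, 4 of 10 rose (40%), 3 fell (30%) and 3 did not pass. The shares over all tested genes were 40.8% and 40.7%. Slc25a18 (ENSRNOG00000042731), a glutamate carrier found in astrocytes, had 1, 1 and 2 counts in the control libraries and 31, 76 and 71 in the C6-AQP1 libraries. The ratio of the normalized sums was 54.0 (95% exact interval 20.7 to 200.4, counting error only), so its size is known only within this range. Slc25a22, the other glutamate carrier, had 2.96, 2.96 and 4.17 normalized CPM in the controls and 3.07, 2.69 and 2.48 in C6-AQP1, and did not pass the test (log2 fold change -0.33, adjusted p = 0.063). Its value rested on C6 control replicate 3, without which the log2 fold change was -0.12 (adjusted p = 0.514). Slc25a29 (ENSRNOG00000004351), a carrier of basic amino acids, had 3.28, 3.25 and 3.25 normalized CPM in the controls and 9.32, 10.2 and 9.55 in C6-AQP1, a log2 fold change of 1.58 (SE 0.10, adjusted p = 2.8e-12). It stood apart from the ornithine carrier Slc25a15, which had a log2 fold change of -0.01 and did not pass. Slc25a2, the other ornithine carrier, had 28 to 81 counts per library and a log2 fold change of 0.81. Its RefSeq span overlaps that of Taf7 on the same strand, whose log2 fold change was 0.34. Slc25a44, of branched-chain amino acids, rose by 0.51 on the log2 scale, Slc25a20, of acylcarnitines, had a log2 fold change of -0.33, and Slc25a38, of glycine, did not pass.

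The mitoferrins Slc25a28 and Slc25a37, which bring iron into mitochondria, rose alike. Slc25a28 had 19.2, 20.3 and 22.5 normalized CPM in the controls and 27.8, 28.4 and 28.1 in C6-AQP1, a log2 fold change of 0.43, and Slc25a37 had 9.60, 7.89 and 8.12 against 12.7, 11.4 and 12.2, a log2 fold change of 0.51. Slc25a39, a glutathione carrier, fell from 145, 146 and 156 to 118, 119 and 119 normalized CPM, a log2 fold change of -0.33, while its relative Slc25a40 did not pass the test. Of the carriers of little known or other function, Slc25a45 rose by 0.60 on the log2 scale, Slc25a46, a protein of the outer membrane linked to its fission, had a log2 fold change of -0.29, and Slc25a35 did not pass.

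The balance within pairs of related members does not depend on how libraries are scaled. The log2 ratio of Slc25a23 to Slc25a24 went from -3.85 ± 0.057 in C6 control to -1.73 ± 0.12 in C6-AQP1 (SD, n = 3), a shift of 2.12. That of Slc25a36 to Slc25a33 shifted by 1.74 and that of Tomm40l to Tomm40 by 1.02. In these pairs the libraries of the groups did not overlap, as in 82.5% of all tested genes taken singly. By contrast, the log2 ratio of Tomm20 to Tomm22 was 1.06 ± 0.021 in C6 control and 1.04 ± 0.034 in C6-AQP1, and those of Slc25a37 to Slc25a28 and of Timm17b to Timm17a shifted by 0.06 and -0.11, with overlapping libraries. Between these lay Slc25a4 to Slc25a5, with a shift of 0.20, Tomm70 to Tomm22, with 0.40, Slc25a40 to Slc25a39, with 0.42, Timm13 to Timm8b, with 0.50, Slc25a25 to Slc25a24, with 0.66, and Mtx3 to Mtx2, with 0.80. Smaller shifts without overlap were those of Mtx1 to Mtx2, with 0.20, and of Slc25a13 to Slc25a12, with 0.12. Slc25a13 to Slc25a12 stood at -1.45 in both C6-AQP1 replicate 3 and C6 control replicate 1, so its groups all but touched. Of the 17 pairs compared, 3 shifted the other way without overlap: Chchd6 to Chchd3 by -0.55, Timm9 to Timm10 by -0.33 and Timm10b to Timm10 by -0.32. For Timm9 to Timm10 the nearest libraries had 1.58 in C6-AQP1 and 1.6 in C6 control, and for Timm10b to Timm10 1.17 and 1.22. With 3 libraries against 3, an exact two-sided permutation test could not go below 0.1 for any of these ratios, and none is given.

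**Figure D4:**
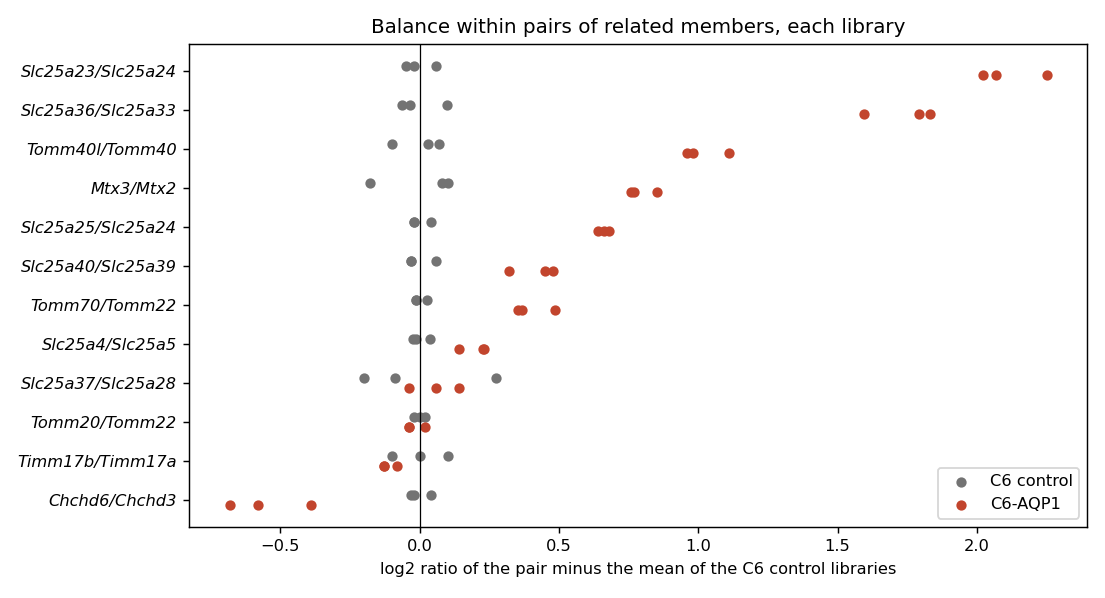
Log2 ratio of 12 pairs of related members in each library, minus the mean of the C6 control libraries (x axis), grey for C6 control and red for C6-AQP1. Slc25a23/Slc25a24 and Slc25a36/Slc25a33 shift most to the right (2.12 and 1.74), Tomm20/Tomm22 stays at 0 and Chchd6/Chchd3 lies to the left (-0.55).

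Other mitochondrial genes, outside these families, fell more often than they rose, mostly by less than 1.5-fold. Their lists cover the matrix motor, peptidases, insertases, MICOS, other carriers and channels, and regulators of mitochondrial gene expression. Of 58 listed genes in 6 lists, 43 (74.1%) fell, 7 (12.1%) rose and 8 did not pass, where 40.7% of all tested genes fell and 40.8% rose, and their median log2 fold change was -0.36. Beyond 1.5-fold, 9 (15.5%) fell and 2 (3.45%) rose, where 15.0% of all tested genes fell and 19.8% rose. The share of falls was thus close to that of all genes, and the share of rises was lower. In the matrix motor and chaperonin list, 7 of 9 fell, with a median of -0.49. Dnajc19 and Dnajc15, co-chaperones that bind Pam16, had log2 fold changes of -1.32 and -0.87, and the chaperonin subunit Hspe1 of -0.85. Hspa9, the motor itself, fell by only 0.15, from 457 ± 8.05 to 411 ± 6.68 normalized CPM (SD, n = 3). Of the presequence and inner membrane peptidases, 8 of 11 fell and 2 rose; Immp1l, a subunit of the inner membrane peptidase, had a log2 fold change of -0.91, Pmpca, of the processing peptidase, -0.52, and the rhomboid protease Parl -0.46.

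Against 40.7% of all tested genes, 6 of 8 insertases and partners of Chchd4 (75%) fell, and none rose. Romo1, an inner membrane protein that works with TIM23, had the largest fall, with a log2 fold change of -1.15, while Mtch2, an outer membrane insertase, and Bcs1l, which assembles respiratory complex III, had -0.62 and -0.40. In the MICOS list outside the Chchd family, all 5 genes with a row fell, and no row carried the symbol Micos13 or Qil1. The largest falls were those of Minos1, Apoo and Apool, with log2 fold changes of -0.76, -0.46 and -0.45. Of 15 carriers and channels that are not SLC25 proteins, 10 fell (66.7%) and 2 rose (13.3%). Vdac3, a pore of the outer membrane, had a log2 fold change of -0.81, the pyruvate carrier subunit Mpc1 -0.58 and the sideroflexin Sfxn5 0.71. Of 10 regulators of mitochondrial gene expression, 7 fell (70%) and 3 rose (30%). Nrf1 went from 43.2 ± 0.810 to 25.8 ± 0.693 normalized CPM (SD, n = 3; log2 fold change -0.75), and Gabpa, the DNA-binding subunit of GABP, from 142 ± 2.01 to 99.5 ± 2.06, a log2 fold change of -0.51. The coactivator Ppargc1b rose from 3.32 ± 0.497 to 12.4 ± 0.859, a log2 fold change of 1.87, and Ppargc1a was not listed.

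**Figure D5:**
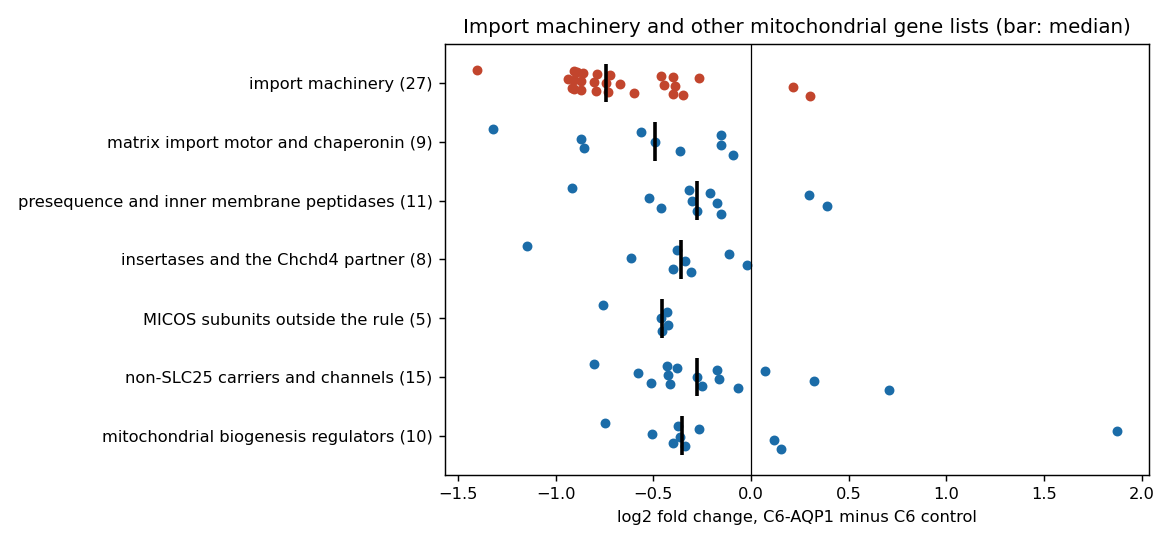
Log2 fold change (C6-AQP1 minus C6 control, x axis) of the 27 import genes above the floor (red) and of 58 genes in 6 other mitochondrial lists (blue), 1 point a gene, with the median of each list as a black bar. The bar of the import machinery, at -0.74, lies further to the left than those of the other lists, which lie between -0.49 and -0.27.

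Some members share their promoter region or their span with another gene. In GRCr8, 13 members had the start of a gene on the other strand within 1000 bases upstream of their own, and in 8 of these the neighbour was listed. Timm8b starts 96 bases from Sdhd, a subunit of succinate dehydrogenase, whose log2 fold change was -0.35 against -1.40 for Timm8b. Timm10b lies 189 bases from Arfip2, which rose by 1.17 on the log2 scale while Timm10b fell by 0.73, and Mtx1 775 bases from Thbs3, a matrix protein that rose by 0.63 while Mtx1 fell by 0.40. The neighbours of Timm10b and Mtx1 thus moved the other way, and that of Timm8b fell by less. Timm17b (-0.91) and its neighbour Pqbp1 (-0.75), 498 bases apart, both fell. Chchd4 (-0.40) and Tmem43 (-0.10) also both fell. Among the carriers, Slc25a11 (-0.66) lies beside Rnf167 (0.04), Slc25a40 (0.09) beside Dbf4 (-0.73) and Slc25a27 (1.12) beside Cyp39a1 (0.16). In addition, 12 members overlap the span of another listed gene, and 11 had expected counts that were not whole in at least 1 library, among them Timm8b, Tomm5, Tomm70, Mtx1 and Slc25a51. Reads shared between features make the levels of such genes less certain.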

How the data were processed

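Transcripts of 3 C6-AQP1 and 3 C6 control libraries were sequenced. Following the study's methods and the submitters' processing notes, reads passed through FastQC (0.11.2) and Trimmomatic (0.36) before alignment to rn6 by STAR (2.5.1b), and RSEM (1.2.29) estimated gene counts. The labels describe single reads and amplified cDNA, while the methods describe paired-end reads. For the gene annotation, no name or version was stated. The authors deposited expected counts, not normalized, for 12121 genes, having kept those with a mean TPM over 1 in at least 1 group, and genes without a row under a matching symbol are not analysed here.

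Expected counts were rounded and scaled by TMM in edgeR 4.0.16 (R 4.3.3), and groups were compared by a robust quasi-likelihood fit without covariates, with Benjamini-Hochberg adjustment over all genes. The standard error was taken from the fold change and the test statistic. Log2 ratios of pairs used a prior count of 2. The steps were tested on simulated data. Intervals and the floor of 3 counts cover counting error only. Alternatives were DESeq2 1.42.0, DESeq2 size factors, library totals, a low-count filter, leaving out libraries and a replicate block. Replicates differed by more than sampling noise (chi-square per degree of freedom 2.15 to 4.31), so each library was counted separately. Members were matched by symbol to RefSeq (71 of 73). The members, gene lists, tests and motifs were chosen with earlier results of these data known. Named genes are all members past 2-fold, the 10 largest rises and falls whose higher group had 50 counts or more in each library and whose groups did not overlap, sets of related members, and up to 3 genes of each other list; the remaining members are named to account for the set, except that 1 carrier, counted in all totals, and 1 marker list are not reported here, and Hspa9 was added after its values were seen.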

Additional observations from a re-analysis of the deposited data

How the results depend on the processing

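Numbers of rises and falls were recomputed for the carriers, the import machinery, the other Chchd genes, the other mitochondrial lists and all genes. Of 312 recomputed counts, 308 stayed within 1.5 times of the values given. These include counts that were 0 in every fit. Such counts were carriers that fell beyond 2-fold, import genes that rose beyond 1.5-fold or 2-fold, and other Chchd genes that rose. Scaling by library totals alone gave 2 rising import genes in place of 1, and moved the median log2 fold change of all genes to 0.05 and that of the carriers to 0.14. Leaving out the shallower library of each group gave 2 import genes that fell beyond 2-fold in place of 1, and leaving out 1 library at a time gave 1 to 2, with 2 without C6-AQP1 replicate 1 or 3. The median of the carriers was 0.0624 to 0.1347 with 1 library left out, 0.13 without C6-AQP1 replicate 2, and 0.14 without Slc25a17 and Slc25a46; why it moved was not tested. The median of the import machinery lay between -0.79 and -0.71 throughout. Of 875 recomputed tests of single members, 852 kept their side of the threshold, 6 lost a call and 17 gained one. These changes of call affected 10 members, and none that was called changed direction. Members without a call could change direction: over all alternatives Slc25a15 ran from -0.07 to 0.045 and Slc25a33 from -0.12 to 0.02. Same-numbered replicates deviated together with correlations of 0.126, -0.0124 and 0.0651, so the numbers were not taken to pair the libraries. With the replicate block, 9982 genes were called in place of 9878, and 24 or 25 import genes fell under every alternative; Chchd2 (log2 fold change -0.38, adjusted p = 2.4e-12) was among the members that gained a call. Slc25a22 ranged from -0.12 (adjusted p = 0.514) without C6 control replicate 3 to -0.46 (adjusted p = 0.00802) without the shallower libraries. Among members with few counts above the floor, Tomm6, Chchd7, Slc25a2, Slc25a18 and Slc25a21 had standard errors of 0.19 or more. Chchd2 had one of 0.31 at 716 to 4269 counts per library, so a large standard error was not confined to low counts. Mtx3 is the gene that rose with library totals alone (0.27, adjusted p = 0.0464).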
